A study of Oryza sativa with 8 samples.

Results

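The pericentromeric regions of the rice cultivar Nipponbare (Nip, a japonica rice) were taken as the chromatin within 2 Mb on either side of the centromere on each of the 12 chromosomes. They held 960 of the 7468 bins of 50 kb that cover the Nip chromosomes, 80 bins on each chromosome, and 896 of these bins carried a compartment score in all 4 Nip libraries, out of 7040 such bins in all. The lists of topologically associating domains (TADs) placed 1422 of 11273 TADs of HS replicate 1 and 1513 of 11911 TADs of HS replicate 2 in these regions by midpoint, against 1057 of 8767 TADs of normal replicate 1 and 1098 of 8703 TADs of normal replicate 2.

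The samples were aerial parts of Nip seedlings 3 weeks old, of a single cultivar with no transgene. In the heat stress (HS) group the seedlings were held at 45 °C for 36 h in high humidity and low light, and in the normal group they were not heated. The sources do not say whether normal seedlings had the light and humidity of the HS chamber, so heat cannot be told apart from those 2 conditions. Each group had 2 biological replicates, which made 4 Hi-C libraries, and the cultivar 93-11 was not used here.

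Hi-C captures contacts between distant stretches of chromatin by ligating DNA that was crosslinked in the nucleus. The first principal component of the contact map (PC1) divides each chromosome into compartment A, in which active, open chromatin is usually found, and compartment B, in which closed chromatin is usually found. TADs are stretches whose DNA meets itself more often than it meets its neighbours, and they can lie inside larger TADs. In rice, as in other plants, the chromatin around a centromere is rich in transposable elements and satellite repeats, poor in genes, and densely packed as heterochromatin. Repeats also make short reads hard to place there.

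The centromere positions used were known to 0.1 Mb, in a build that is not stated, and were therefore checked against gene number. The regions held 3.27 annotated genes per bin, against 5.83 in the rest of the chromosomes, and were poorer in genes on all 12 chromosomes. Bins with no gene made up 8.54% of the regions and 1.71% of the rest. The regions held 7.65% of the annotated genes in 12.9% of the bins. The stretch of 1 Mb with the fewest genes lay within 2 Mb of the centromere position on 8 chromosomes, on chromosomes 1, 2, 3, 4, 7, 8, 10 and 11. It lay 2.15 Mb away on chromosome 5, 3.35 Mb away on chromosome 6, 5.10 Mb away on chromosome 9 and 3.40 Mb away on chromosome 12, and on those 4 chromosomes the position is less sure. Bins without a score in at least 1 library made up 6.67% of the regions, 64 bins, and 5.59% of the rest. The longest run of them inside a region was 6 bins on chromosome 1.

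The regions lay almost wholly in compartment B. Of the scored pericentromeric bins, 807 of 896 (90.1%) were B in all 4 libraries, against 40.3% of the bins of the rest. Compartment A held 8.15% of pericentromeric bins in HS replicate 1, 7.48% in HS replicate 2, 6.03% in normal replicate 1 and 6.58% in normal replicate 2. In the rest it held between 56.1% and 56.2% of bins in every library. The share inside was 49.1 percentage points below that of the rest on average, lower in 4 of 4 libraries (exact two-sided sign-flip permutation test, p = 0.125, the smallest p that 4 libraries allow). In the limma fit over chromosomes the share was lower inside the region on all 12 chromosomes (12 of 12 called, 100%), by between 26.2 percentage points on chromosome 12 and 63.3 percentage points on chromosome 3, with adjusted p-values of at most 5.76e-06. Per the methods of the study, the sign of PC1 was set with the gene annotation, so some of the agreement between few genes and B is built into the score.

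Within each of 3 classes of gene number, pericentromeric bins were still in A far less often than bins of the rest. The classes are wide, and gene number within a class was not matched between the regions and the rest. Among bins with 6 genes or more, compartment A held 14.2% and 11.9% of the 134 pericentromeric bins in the HS libraries and 10.4% and 12.7% in the normal libraries. Among the 3389 bins of the rest with 6 genes or more, it held 73.6% and 73.3% in the HS libraries and 73.9% and 74.2% in the normal libraries. With 3 to 5 genes, the pericentromeric share was 11.1% in both HS libraries, against 8.21% and 8.94% in the normal libraries, and the rest stood between 40.8% and 41.3% in every library. With 0 to 2 genes, the pericentromeric share lay between 1.44% and 2.30% and that of the rest between 8.93% and 9.98%. In none of these 3 classes did the pericentromeric range overlap that of the rest.

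PC1 was set on a common scale by dividing it by its standard deviation on each chromosome in each library, since PC1 is computed chromosome by chromosome. The mean scaled PC1 of the regions was -0.892 and -0.899 in the HS libraries, against -0.949 and -0.951 in the normal libraries, and between 0.140 and 0.143 in the rest of every library. The 2 conditions did not overlap inside the regions. Against the distance from the centromere, scaled PC1 and the share of A stayed low well beyond the 2 Mb that define the regions. The share of A was 7.55% ± 1.33 in HS and 7.55% ± 0.667 in normal libraries (SD, n = 2 each) within 0.5 Mb of the centromere, and 9.15% ± 0.316 in HS and 7.59% in both normal libraries from 3.5 to 4 Mb. It then reached 17.7% in HS and 14.1% in normal libraries at 4 to 4.5 Mb, and 34.9% in HS and 37.3% in normal libraries at 6.5 to 7 Mb. The order of the conditions turned with distance: scaled PC1 was -0.896 in HS and -0.982 in normal libraries at 1.5 to 2 Mb, but -0.753 in HS and -0.698 in normal libraries at 5.5 to 6 Mb. Gene number was 2.41 per bin within 0.5 Mb, 3.96 at 1.5 to 2 Mb, 4.13 at 3.5 to 4 Mb and 5.17 at 6.5 to 7 Mb.

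**Figure D1:**
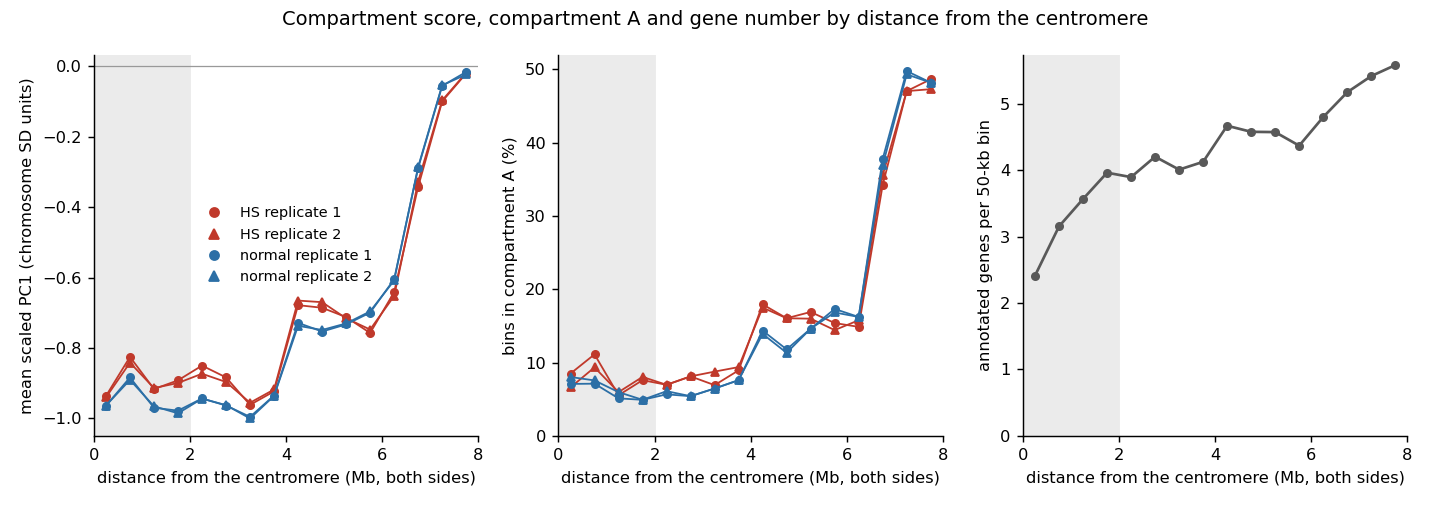
Mean scaled PC1 in units of the chromosome standard deviation (left), share of bins in compartment A in percent (middle) and annotated genes per bin of 50 kb (right), in steps of 0.5 Mb of distance from the centromere, both sides and all 12 chromosomes together. In the left and middle panels each line is a library, HS in red and normal in blue, the grey band marks the pericentromeric regions, and the share of A is at most 11.1% in every library within 4 Mb.

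The 12 regions differed from each other. Chromosomes 1, 2, 3 and 5 had no pericentromeric A bin in any library. Chromosome 12 had the most, 20 and 22 of 79 scored bins in the HS libraries and 22 in both normal libraries, which is 25.3% and 27.8% in HS and 27.8% in both normal libraries. Chromosome 11 followed with 17.9% and 16.7% in HS and 16.7% and 17.9% in normal libraries. These 2 chromosomes were well apart from all others in the normal libraries, where the next region, that of chromosome 8, stood at 9.46% in both. Chromosomes 4 and 10 had 7.25% and 1.43% to 2.86% in HS, against 7.25% to 8.70% and 2.86% in normal libraries, and their conditions overlapped or tied.

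The A bins inside the regions were small islands. Bins in A in all 4 libraries numbered 44 and formed 21 islands on 7 chromosomes, 8 of them a single bin. Chromosome 12 held 18 of the 44 bins and chromosome 11 held 12. The longest island was chr12:10800001-11200000, 400 kb with 36 genes, 0.725 Mb from the centromere at its nearest bin. Its mean PC1 was 0.0409 and 0.0421 in the HS libraries, against 0.0448 and 0.0441 in the normal libraries. On chromosome 12 a further pair of islands, chr12:11750001-11850000 with 5 genes and chr12:11950001-12050000 with 10 genes, each came within 0.075 Mb of the centromere position. That chromosome is among the 4 on which the centromere position is less sure. The A bins inside the regions held 4.93 genes per bin, against 7.07 in the A bins of the rest, and the B bins held 3.23 inside and 4.46 in the rest.

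**Figure D2:**
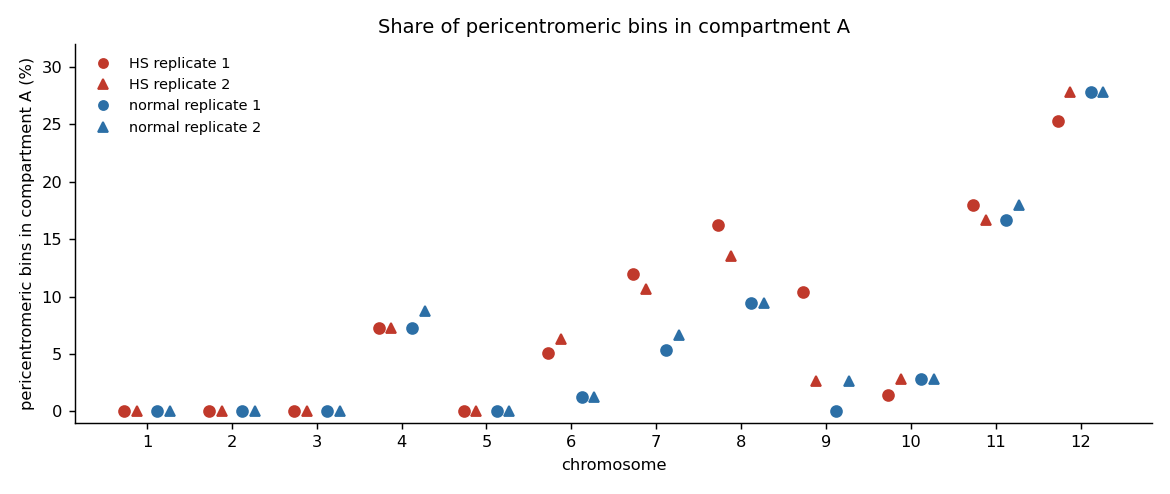
Share of scored pericentromeric bins in compartment A, in percent, on each chromosome, with a point per library (HS red, left, and normal blue, right, of each chromosome). The HS points lie above the normal points on chromosomes 6, 7 and 8, and all points lie at 0 on chromosomes 1, 2, 3 and 5.

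HS was compared with normal inside the regions to ask whether the compartment state of this chromatin changed. Averaged over the regions, the share of A was 7.81% ± 0.474 in HS and 6.31% ± 0.395 in normal libraries (SD, n = 2 each), and the mean scaled PC1 was 0.0547 higher in HS. The rise in the mean was not shared by most bins. Over the 896 bins the median change of PC1 as deposited was 0. A higher mean in HS was found in 422 of them (47.1%), against 47.4% of the bins of the rest. Relative to the rest of the chromosomes, the share of A was 1.60 percentage points higher in HS and scaled PC1 0.0567 higher, with no overlap of the 2 conditions in either. The exact two-sided permutation test gave p = 0.33 for each, the smallest p that 2 against 2 libraries allow. The difference in PC1 was also present among bins that were B in all 4 libraries: the 807 such bins inside had a scaled PC1 of -1.03 and -1.04 in HS, against -1.08 in both normal libraries, and the 2478 such bins of the rest had -0.957 and -0.956 in HS, against -0.963 in both normal libraries. Relative to the rest, these B bins were 0.0420 higher in HS (exact permutation test, p = 0.33, n = 2 each).

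By chromosome, limma called a higher scaled PC1 in HS, relative to the rest of the same chromosome, on 6 of 12 chromosomes (50%), on chromosomes 6, 7, 8, 9, 11 and 12, and a lower one on 0. Chromosome 9 had the largest value. Its scaled PC1 inside the region was -0.579 and -0.629 in HS, against -0.722 and -0.736 in normal libraries, and the change relative to the rest was 0.157 ± 0.0218 (SE, adjusted p = 0.00346). On chromosome 11 the values were -0.655 and -0.626 in HS, against -0.737 and -0.738 in normal libraries, a change of 0.122 ± 0.0115 (adjusted p = 0.00186). On chromosome 12 they were -0.390 and -0.375 in HS, against -0.463 and -0.465 in normal libraries, a change of 0.0856 ± 0.00903 (adjusted p = 0.00186). The changes on chromosomes 6, 7 and 8 were 0.0746, 0.0706 and 0.0930, with adjusted p-values of 0.00186, 0.00266 and 0.0221. On the other chromosomes the change lay between -0.0133 on chromosome 2 and 0.0356 on chromosome 4, and none passed the threshold of 0.05. Among the 4 chromosomes without an A bin in the region, 1, 2, 3 and 5, none was called, with changes of 0.0178, -0.0133, 0.00761 and -0.00462.

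Chromosomes 8 and 9 were not called without normal replicate 1 or without normal replicate 2, and the other 4 were called whichever library was left out. A condition left with 1 library is assumed in these fits to vary like the other condition, so the spread then comes from 1 pair of libraries, and a call kept this way says little about stability. With a half-width of 1 Mb, chromosomes 7, 9 and 11 were called higher and chromosome 5 lower, and with 3 Mb, 10 chromosomes were called higher. In the ring from 2 to 2.5 Mb, just outside the regions, the conditions did not overlap either. The scaled PC1 there was -0.850 and -0.873 in HS, against -0.943 and -0.944 in normal libraries. The same order held in every ring of 0.5 Mb out to 5.5 Mb, so the higher score in HS was not particular to the regions. At 4.5 to 5 Mb it was -0.686 and -0.670 in HS, against -0.753 and -0.749 in normal libraries. Within 0.5 Mb of the centromere it was -0.936 and -0.940 in HS, against -0.964 in both normal libraries. Without HS replicate 1 and without HS replicate 2, 9 chromosomes were called, 8 of them higher, and the lower one was chromosome 2 without replicate 1 and chromosome 5 without replicate 2.

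**Figure D3:**
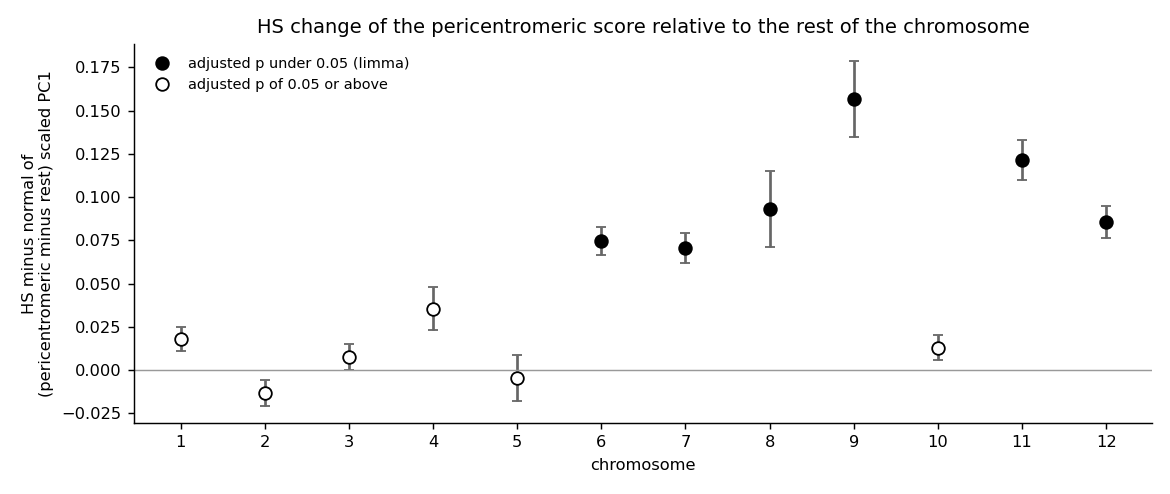
HS minus normal change in scaled PC1, pericentromeric minus rest of the chromosome, in units of the chromosome standard deviation, on each chromosome. Bars are standard errors of the limma fit (n = 2 libraries per condition), filled points have an adjusted p under 0.05, and the filled points are chromosomes 6, 7, 8, 9, 11 and 12.

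The share of A followed on fewer chromosomes. Relative to the rest, limma called a higher share in HS on 3 of 12 chromosomes (25%), by 4.04 ± 0.715 percentage points on chromosome 6, 7.31 ± 1.28 on chromosome 7 and 5.74 ± 0.793 on chromosome 8 (SE, adjusted p = 0.0187 for each), and a lower share on 0. In bins, chromosome 6 had 4 and 5 A bins of 79 in HS, against 1 in both normal libraries. Chromosome 7 had 9 and 8 of 75 in HS, against 4 and 5 in normal libraries. Chromosome 8 had 12 and 10 of 74 in HS, against 7 in both normal libraries. On chromosome 9, HS replicate 1 had 8 A bins of 77 and HS replicate 2 had 2, against 0 and 2 in normal libraries, and the HS replicates differed from each other by more than the conditions did. With a library left out these calls were lost, except that of chromosome 7 without normal replicate 2, in fits that leave 1 library in a condition. The change then lay between 3.44 and 4.63 percentage points on chromosome 6. It lay between 5.81 and 8.81 on chromosome 7 and between 5.05 and 6.42 on chromosome 8. With a half-width of 1 Mb, chromosomes 7 and 8 were called higher and chromosome 12 was called lower, with a change of -8.004 percentage points.

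A bin was counted as switched where both HS libraries had the same compartment and both normal libraries had the other. In the regions 13 of 896 bins switched, or 1.45% (95% Clopper-Pearson interval 0.775% to 2.47%, which covers counting error only), against 2.09% of all bins and 2.18% of the bins of the rest. Of these, 11 were B under normal conditions and A in HS, which is 1.23% of the scored pericentromeric bins against 1.05% of all bins. The other 2 were A under normal conditions and B in HS, 0.223% against 1.04% of all bins. Replicates of the same condition also differed in compartment. The HS replicates did so in 2.90% of the scored pericentromeric bins and the normal replicates in 1.00%, against 3.24% and 2.05% in the rest. The share of switched bins inside was thus below the share in which the HS replicates differed. Set against what could switch, 1.32% of the 835 pericentromeric bins in B in both normal libraries turned to A, against 2.40% of 2630 such bins of the rest, and 3.85% of the 52 bins in A in both normal libraries turned to B, against 2.10% of 3388 in the rest. Leaving out a library leaves fewer calls that have to match, and gave 20 switched bins without HS replicate 1 (2.23%, against 3.48% of all bins) and 29 without HS replicate 2 (3.24%, against 3.45% of all bins). Of the 13 switched bins, 7 lay on the 8 chromosomes whose fewest genes lay inside the region, which hold 8 of the 12 regions.

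The 13 bins lay on 6 chromosomes and most had scores near 0. On chromosome 6, 3 neighbouring bins at chr6:13300001-13450000, at the outer edge of the region with 5, 5 and 9 genes, moved to A. The middle bin of these had a PC1 of 0.022 and 0.006 in HS, against -0.030 and -0.021 in normal libraries. On chromosome 7, chr7:11500001-11550000 had 0.016 and 0.035 in HS, against -0.011 and -0.012 in normal libraries. Also on chromosome 7, the neighbouring bins chr7:12950001-13000000 and chr7:13000001-13050000 moved to A, beside an island of A bins at chr7:13050001-13150000 that was A in all 4 libraries. The second of these had 0.017 and 0.012 in HS, against -0.020 and -0.021 in normal libraries, and was the only switched pericentromeric bin that limma called as well (adjusted p = 0.0377).

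On chromosome 8, chr8:11250001-11300000, next to an island at chr8:11300001-11350000, had 0.033 and 0.021 in HS, against -0.002 and -0.013 in normal libraries, and chr8:13600001-13650000 had 0.004 and 0.019, against -0.013 and -0.005. Single bins moved to A on chromosome 4 (chr4:11450001-11500000, 0.011 and 0.007 in HS, against -0.004 in both normal libraries), on chromosome 9 (chr9:2150001-2200000, 0.016 and 0.010, against -0.005 and -0.007) and on chromosome 12 (chr12:13700001-13750000, 0.016 and 0.001, against -0.020 and -0.028). The 2 bins that moved to B were chr4:8550001-8600000, with -0.008 and -0.012 in HS, against 0.012 and 0.003 in normal libraries, and chr12:11450001-11500000, with -0.008 and -0.019, against 0.004 and 0.017. The score is deposited with 3 decimals, and several of these values lie within a few units of its last digit from 0.

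**Figure D4:**
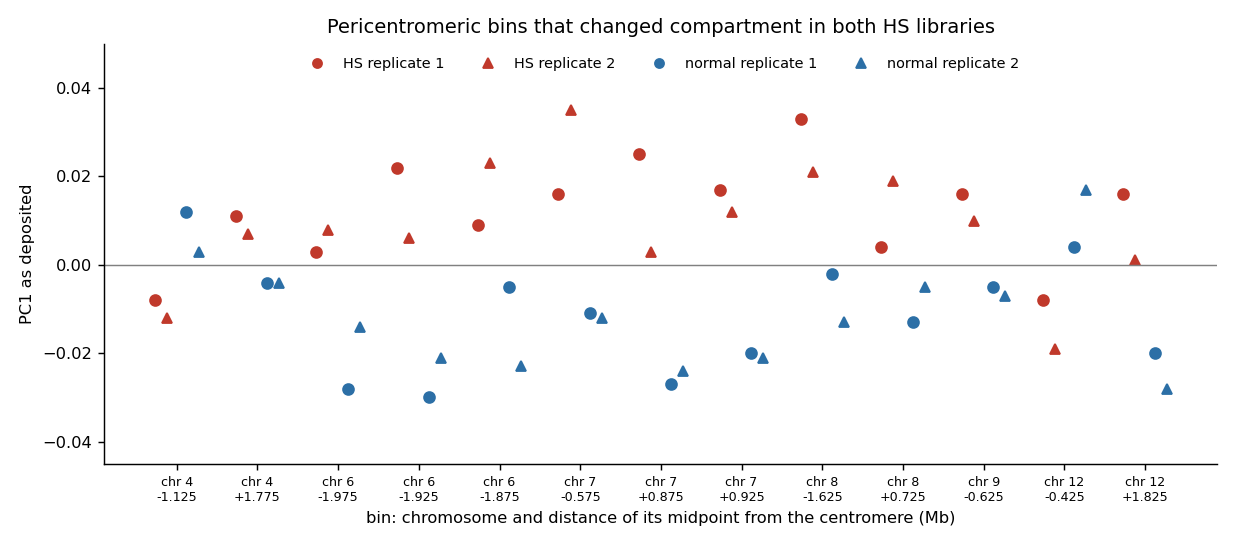
PC1 as deposited in the 13 switched pericentromeric bins, with a point per library (HS red, left, and normal blue, right, of each bin), labelled by chromosome and by the distance of the bin's midpoint from the centromere in Mb. In 11 bins both HS points lie above 0 and both normal points below, and in 2 bins the reverse.

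Tested bin by bin with limma over all 7040 scored bins, PC1 was higher in HS in 23 of the 896 pericentromeric bins (2.57%, against 1.99% of all bins) and lower in 7 (0.781%, against 2.06% of all bins), in all 3.35%, against 4.05% of all bins. The 30 called bins lay on 8 chromosomes, 9 of them on chromosome 11 and 6 on chromosome 12. Most were B in every library and stayed so. The largest rise was at chr11:11400001-11450000, in A in all libraries, with 0.051 and 0.054 in HS, against 0.019 and 0.014 in normal libraries (adjusted p = 0.0412). The next were chr7:13000001-13050000, described above, chr12:9950001-10000000 (-0.012 and -0.010 in HS, against -0.045 and -0.042, adjusted p = 0.0369), chr6:13500001-13550000 (-0.009 and -0.015, against -0.041 and -0.042, adjusted p = 0.0459) and chr8:13900001-13950000 (0.001 and -0.004, against -0.031 and -0.030, adjusted p = 0.0440).

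The largest fall was at chr12:11400001-11450000, with 0.005 and -0.002 in HS, against 0.034 and 0.039 in normal libraries (adjusted p = 0.0475), in the bin beside the switched bin of the same chromosome. It was followed by chr7:12850001-12900000, with -0.035 and -0.032 in HS, against -0.004 and 0.003 in normal libraries (adjusted p = 0.0470). The other falls were of 0.011 or less, at chr11:11700001-11750000, chr12:10950001-11000000 and chr11:12600001-12650000 and in 2 further bins. The first was called by limma in all 21 draws of random digits within the rounding (adjusted p = 0.0470). The second was called in 12 draws (adjusted p = 0.0499), the third in 11 (adjusted p = 0.0493) and the further bins in 12 and 14. At an unadjusted p under 0.05, limma had 168 pericentromeric bins higher (18.8%, against 18.0% of all bins) and 128 lower (14.3%, against 17.2% of all bins). Without HS replicate 1, without normal replicate 1 and without normal replicate 2 none of the 896 bins was called, and without HS replicate 2 75 pericentromeric bins were called (8.37%, against 7.39% of all bins). In the fit of all 4 libraries, 17 of the 30 called bins lay on the 8 chromosomes whose fewest genes lay inside the region. Those chromosomes hold 8 of the 12 regions, which are of equal size.

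In the deposited lists, in which TADs lie inside one another, TADs were more numerous and smaller in HS, inside the regions and outside. These lists may not come from the TAD caller that the methods describe. The regions held 29.6 and 31.5 TADs per Mb in the HS libraries, against 22.0 and 22.9 in the normal libraries, a ratio of the means of 1.36. The rest held 31.1 ± 1.19 in HS, against 23.6 ± 0.228 in normal libraries (SD, n = 2 each), a ratio of 1.32. Median size inside was 45 kb in both HS libraries, against 75 and 80 kb in the normal libraries, and in the rest it was 40 kb in both HS libraries, against 65 kb in both normal libraries. The conditions did not overlap in either measure (exact permutation test, p = 0.33, the smallest p for n = 2 each). Contact counts are not in these files. The study's own library statistics give fewer valid contacts for both HS libraries than for both normal Nip libraries, and the part of depth in the number and size of TADs was not tested.

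Large TADs were rare in HS. TADs of 300 kb or more made up 1.27% and 1.39% of pericentromeric TADs in HS, against 9.18% and 9.74% in normal libraries, and 0.741% and 0.404% in the rest in HS, against 4.62% and 5.52% in normal libraries. TADs of 40 kb or less made up 49.5% and 48.4% inside in HS, against 23.4% and 22.2% in normal libraries. The largest pericentromeric TADs were of like size in all libraries, chr11:11350001-11960000 with 610 kb in HS replicate 1, chr10:7735001-8340000 with 605 kb in HS replicate 2, chr3:20055001-20665000 with 610 kb in normal replicate 1 and chr8:11830001-12450000 with 620 kb in normal replicate 2. The first of these held 12 smaller TADs, and the others 8, 3 and 11.

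In nesting, the level of a TAD counts how many larger TADs enclose it. The mean level inside was 1.02 and 1.07 in HS, against 1.44 and 1.62 in normal libraries, and in the rest 0.878 and 0.933 in HS, against 1.21 and 1.25 in normal libraries. In each library TADs were nested more deeply inside the regions than in the rest. Among bins in B in all 4 libraries, a comparison chosen after the data were seen, the difference was smaller. There the mean level in HS was 1.02 and 1.09 inside, against 0.959 and 1.03 in the rest. In normal replicate 1 it was 1.419 inside, against 1.415 in the rest, and in normal replicate 2 it was 1.62, against 1.43. TADs at level 2 or above made up 24.8% and 28.1% of the pericentromeric TADs in HS, against 41.5% and 47.3% in normal libraries.

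Set against the rest of the same library, the regions held fewer and larger TADs. The log2 ratio of TADs per Mb, inside over rest, averaged -0.05 (-0.03 without normal replicate 1) and was below 0 in 4 of 4 libraries, and the log2 ratio of median sizes averaged 0.21 and was above 0 in 4 of 4 (exact two-sided sign-flip permutation test, p = 0.125 for each, the smallest p that 4 libraries allow). Among bins in B in all 4 libraries both differences were smaller. There the median size inside was 45 kb in HS and 77.5 kb in normal libraries, against 42.5 kb in HS and 75 kb in normal libraries in B bins of the rest, and TADs per Mb were 31.3 in HS and 22.4 in normal libraries inside, against 30.9 in HS and 22.6 in normal libraries in B bins of the rest. Within B, the log2 ratio of median sizes was 0.07 (p = 0.5) and that of TADs per Mb 0.00 (p = 1, exact sign-flip tests over 4 libraries), a comparison chosen after the data were seen.

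For TADs per Mb the HS change of the log2 ratio, inside over rest, was 0.04 (exact permutation test, p = 0.67, n = 2 each), with overlap of the 2 conditions, and 0.0055 without normal replicate 1 and 0.080 without normal replicate 2. For median size it was -0.08 (p = 0.33, exact, n = 2 each), and -0.13 without normal replicate 1 and -0.04 without normal replicate 2. By chromosome, limma called 0 of 12 (0%) for the HS change of either measure, and for the difference between inside and rest it called TADs per Mb on 0 of 12 (0%) and median size on 1 of 12 (8.33%), larger inside on chromosome 10, with a log2 ratio of 0.29 ± 0.09 (SE, adjusted p = 0.0480). With any of the 4 libraries left out that call was lost.

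Both comparisons gave larger values for outermost TADs, those that lie in no other TAD. The regions held 9.33 and 9.42 outermost TADs per Mb in HS, against 4.88 and 4.75 in normal libraries, and the rest held 11.3 and 11.2 in HS, against 6.95 and 6.51 in normal libraries. Their median size inside was 70 kb in both HS libraries, against 150 kb in both normal libraries, and in the rest 55 and 60 kb in HS, against 95 and 100 kb in normal libraries. The log2 ratio, inside over rest, averaged -0.37 for outermost TADs per Mb and 0.45 for their median size (exact sign-flip test, p = 0.125 for each). Its HS change was 0.22 for number and -0.34 for size, with no overlap of the conditions (exact permutation test, p = 0.33 for each, n = 2 each). Innermost TADs, those that hold no other TAD, were not larger inside in HS. Their median size was 30 and 35 kb in the HS libraries, both inside and in the rest. In both normal libraries it was 55 kb inside, against 50 kb in the rest. The log2 ratio averaged 0.069 for their size (exact sign-flip test, p = 0.5) and -0.099 for their number per Mb (p = 0.125).

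Over the regions of single chromosomes, both HS libraries held more TADs than both normal libraries on 10 of 12 chromosomes, and both had a smaller median size on 11. In the rest, the same held for TADs per Mb on every chromosome but chromosome 11. For median size it held in the rest on every chromosome but chromosome 10. Chromosome 3 had the largest difference in number, with 150 and 162 TADs in HS, against 94 and 100 in normal libraries. Chromosome 10 was the exception in number, with 101 and 62 TADs in HS, against 86 and 79 in normal libraries, and its HS replicate 2 was alone in having a median size, 102.5 kb, above that of both normal libraries. On chromosome 11 the HS replicates also stood apart, with 76 TADs in HS replicate 1 and 139 in HS replicate 2, against 72 and 84 in normal libraries. This split was not particular to the region. The rest of chromosome 11 held 17.8 and 31.97 TADs per Mb in HS, against 21.72 and 21.43 in normal libraries. In the rest of chromosome 10 the conditions were also close, with 26.13 and 22.95 TADs per Mb in HS, against 22.85 and 21.93.

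In windows of 1 Mb, limma on log2(TADs + 1) called 0 of the 48 pericentromeric windows and 0 of all 360 (0%), although 127 of all windows and 17 of the pericentromeric windows had an unadjusted p under 0.05, all with more TADs in HS. In 25 of the 48 pericentromeric windows both HS libraries held more TADs than both normal libraries, against 66.4% of all 360 windows, and in 0 of the 48 did both hold fewer. The window with the largest positive difference, chr3:19400001-20400000, held 38 and 39 TADs in HS, against 20 and 18 in normal libraries (adjusted p = 0.0800), and the largest negative one was chr10:7200001-8200000, with 27 and 20 in HS, against 30 and 26 in normal libraries (adjusted p = 0.378). Counted by outermost TADs only, limma called 16 of the 48 windows (33.3%), all with more in HS, against 73 of all 360 windows (20.3%).

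Less of the regions lay in any TAD in HS. Outermost TADs covered 90.3% and 91.2% of the regions in the HS libraries, against 98.7% and 98.6% in the normal libraries, and 88.2% and 89.0% of the rest in HS, against 97.7% and 98.0% in normal libraries. Inside the regions the conditions did not overlap (exact permutation test, p = 0.33, n = 2 each), and coverage was lower in both HS libraries than in both normal libraries on 11 of 12 chromosomes. In the rest it was lower in both HS libraries on every chromosome. The uncovered stretches centred inside the regions numbered 186 and 178 in HS, against 39 and 35 in normal libraries, with a median length of 20 kb in both HS libraries, against 15 and 20 kb in the normal libraries. The longest were on chromosome 1, chr1:16805001-17130000 with 325 kb in HS replicate 1 and chr1:16795001-17080000 with 285 kb in HS replicate 2, close to the centromere position and overlapping the run of 6 bins without a score, while no such stretch in the normal libraries was over 35 kb.

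The share of length in TADs was lower in HS by less inside than outside, with an HS change of inside minus rest of 1.40 percentage points (exact permutation test, p = 0.33, n = 2 each). It was 0.469 with a half-width of 1 Mb, 0.806 with 3 Mb and 0.864 with the outer 2 Mb of each chromosome left out of the rest. Over both conditions, limma called a higher coverage inside than in the rest on 4 of 12 chromosomes (33.3%), chromosomes 3, 6, 11 and 12, and an HS change of that difference on 0 of 12 (0%). The calls for coverage turned on single libraries. The difference between inside and rest was called on 0 chromosomes without normal replicate 1 and without normal replicate 2, on 8 without HS replicate 1, of which 1 was lower inside, and on 11 without HS replicate 2, of which 3 were lower inside. Its HS change was called on 7 without HS replicate 1, of which 2 were lower, and on 9 without HS replicate 2, of which 3 were lower. The centromere position itself lay in an outermost TAD on 11 chromosomes in both HS libraries and on all 12 in both normal libraries, and the median size of that TAD was 230 and 255 kb in HS, against 345 and 425 kb in normal libraries.

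**Figure D5:**
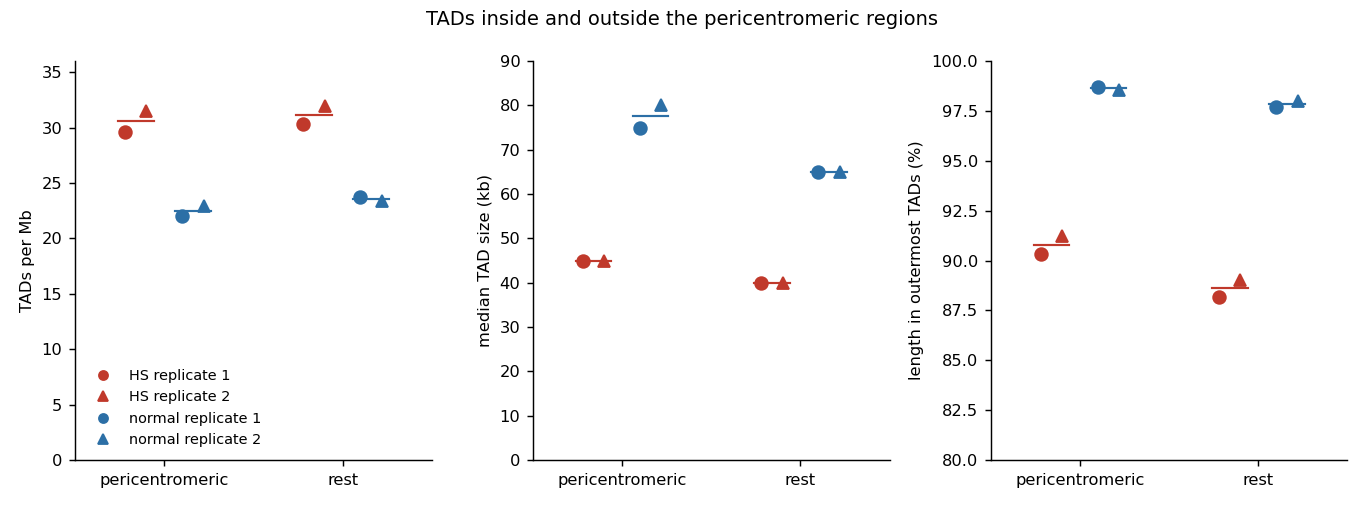
TADs per Mb (left), median TAD size in kb (middle) and share of length in outermost TADs in percent (right, axis from 80%), inside the pericentromeric regions and in the rest of the chromosomes. Points are libraries (HS red, left, and normal blue, right, of each pair), lines are means of 2 libraries, and in each panel the conditions lie apart in both places.

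Boundaries of TADs were compared last. A boundary counted as lost where both normal replicates had it within 5 kb and neither HS library did. Of 448 pericentromeric boundaries shared by the normal replicates, 68 were lost, 15.2% (95% Clopper-Pearson interval 11.98% to 18.8%), against 13.7% of all shared boundaries and 13.6% of those of the rest. Of 639 pericentromeric boundaries shared by the HS replicates, 247 were gained, in neither normal library, 38.7% (34.9% to 42.6%), against 34.7% of all and 34.2% of the rest (32.9% to 35.5%). The intervals cover counting error only, and the difference between the regions and the rest was not tested over libraries. The HS libraries had 25.0 and 25.7 boundaries per Mb inside, against 15.6 and 15.9 in the normal libraries, and in the rest 26.7 and 27.1 in HS, against 17.8 and 17.4 in normal libraries. A normal boundary thus had more boundaries within reach of a match than an HS boundary had. The lost and gained shares therefore cannot be set against each other, and the part of boundary number in them was not tested. With either HS replicate left out, the lost share became 30.4% without HS replicate 1 and 37.5% without HS replicate 2, since then a single HS library has to lack the boundary.

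TADs were found again less often in pairs with an HS library than between the normal replicates. With a reciprocal overlap of at least 80%, 30.4% of the pericentromeric TADs of a normal library were found in an HS library, as a mean over the 4 pairs (26.5% to 33.6%), against 32.2% in the rest (30.8% to 33.5%). Of those of an HS library, 22.5% were found in a normal library (19.8% to 24.5%), against 24.4% in the rest. Between the HS replicates the share was 28.3% inside and 32.2% in the rest, and between the normal replicates 48.2% inside and 52.6% in the rest. Of the TADs of an HS library inside the regions, 28.3% were thus found in the other HS library, against 22.5% in a normal library. Compartment scores were closer between replicates, with a Pearson's r across the 896 pericentromeric bins of 0.941 between the HS replicates and 0.981 between the normal replicates, against 0.986 and 0.995 across the bins of the rest, where bins are not independent replicates.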

How the data were processed

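Of 8 Hi-C libraries, the 4 Nip libraries were used. Per the labels and the methods of the study, the authors digested chromatin with Dpn II and processed read pairs with cutadapt 1.0 and HiC-Pro 2.8.1. The authors deposited, for each library, a score per 50-kb bin, which is PC1 with 3 decimals, its sign giving compartment A or B, and a whole number of genes per bin. The methods describe PC1 from HOMER, its sign set with the gene annotation, but at a coarser resolution than these bins. The other deposited files list TADs on a 5-kb grid with a nesting level. For TADs the methods describe hicFindTADs from HiCExplorer at this resolution, which gives TADs that do not nest, so these lists may not come from it, and number and size here are those of the nested lists. The genome build is not given in the sources used here, and coordinates are those of the files. They hold no contact counts, so depth was not used, and no interval that needs depth is given. Bins and TADs were placed by their midpoint.

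The members and lists were chosen with earlier results of these data known. The regions named are the 12 regions, all switched bins, up to 5 called bins in each direction, the largest TAD of each library and the windows with the largest rise and fall. PC1 was tested with limma 3.58.1 in R 4.3.3 and Benjamini-Hochberg adjustment at 0.05. Random digits within the rounding were added in 21 draws and the median adjusted p was used. Windows used a pseudocount of 1. Chromosome fits had 5 measures, adjusted over 12 chromosomes. Other values had exact permutation tests over libraries. The limma fits of bins, of windows and of scaled PC1 by chromosome were tested on simulated data. The functions for overlap, boundaries, nesting, covered length and the exact tests were checked on small inputs with known answers. Other steps were not tested this way. Alternatives changed the half-width, the rest, the compartment call, the scaling, the TADs used, the tolerance, the overlap, the replicate block and the libraries. No gene was named, since the gene table at hand is of another build.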

Additional observations from a re-analysis of the deposited data

How the results depend on the processing

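Of 256 recomputed values, 114 had an exact test, and 111 of these kept their sign, in a design too small to pass the threshold. The others were counts and shares. Of the counts, 72 stayed within 1.5 times of the count reported, whichever direction the calls had. Depth could not be weighed, since the files hold no contact counts. The HS change of TADs per Mb, inside over rest, became -0.0049 (log2) with a half-width of 1 Mb. Within bins of compartment B in all 4 libraries, chosen after the data were seen, the log2 ratio of TADs per Mb became 0.0017 and the HS change of that of median size 0.038. For bins called by PC1, 30 inside, the count was 15 at 1 Mb, 52 at 3 Mb, 112 with values as deposited (981 of all bins), 15 with quantile normalization, 17 on the 8 chromosomes whose fewest genes lay inside (chosen after the data were seen) and 0 to 75 with a library left out. Switched bins, 13 inside (1.45%, against 2.09% of all bins), numbered 6 at 1 Mb and 20 at 3 Mb, again over fewer and more bins. With calls from the mean of the replicates they numbered 22 (2.46%, against 4.08% of all bins). With a library left out they numbered 15 to 29, and 7 of the 13 lay on those 8 chromosomes. Windows called, 0 inside, numbered 16 with outermost TADs, of 73 in all.

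The labels and methods do not say whether the replicate numbers pair the libraries. The deviations of same-numbered libraries correlated at r = 0.02 over bins and -0.01 over windows. With the replicate block, 0 of all bins and 0 of all windows were called. Median TAD size inside against rest was called on 3 chromosomes and coverage on 0. The HS change of the share of A was called on 1 and that of PC1 on 5, without chromosome 8 (limma, adjusted p = 0.0735).

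Among chromosomes, TADs per Mb inside against rest was called on 2 at 1 Mb and on 0 to 1 with a library left out. Median size was called on 0 at 1 Mb, without the outer 2 Mb of each chromosome, and with any library left out. Coverage was called on 0 at 1 Mb, on 1 without the outer 2 Mb and on 0 to 11 with a library left out. The HS change of the share of A was called on 5 at 3 Mb and 0 to 2 with a library left out, that of PC1 on 10 at 3 Mb, and that of coverage on 0 to 9 with a library left out. Boundaries lost were 39.1% at the same position, 6.65% at 10 kb, 19.6% for outermost TADs and 19.3% to 37.5% with a library left out. Boundaries gained were 56.4%, 31.3%, 56.0% and 46.7% to 55.7% in the same settings. TADs found again were 74.6% at 50% overlap and 12.7% at 90%. The difference in genes per bin was -2.90 at 1 Mb, -2.44 at 3 Mb and -2.37 without the outer 2 Mb. The causes were not tested.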
